A study of Rattus norvegicus with 2 samples.

Results

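Assembled loci are stretches of the rat genome from which a transcript assembler pieced together sequenced fragments. The authors' table gives each of them an identifier of its own (XLOC). The loci described here were chosen by their FPKM (fragments per kilobase of transcript, adjusted for library size), which had to be at least 1 in each of 2 urine libraries. 555 of 6139 assembled loci met this limit, out of 113011 listed features in all. For 110 of the 555 (19.8%) the table also names a known gene or noncoding entry, and for the others it names none. The urine came from Sprague Dawley rats whose age is given as 8 weeks (postnatal day 56). Whether this was the age at surgery or at urine collection is not stated. The library labelled WT belongs to the sham-operated rats of the study, and the library labelled UUO to rats 2 weeks after unilateral ureteral obstruction, in which 1 ureter is tied off and the kidney behind it scars. Urine of both groups was drawn from the ureter by catheter, and how many rats stand behind a library is not stated. With 1 library on each side there is no replicate check and no p-value, and group and library cannot be told apart. The table names its conditions by abbreviations that were read as UUO and WT, and all directions below would turn if that reading were wrong.

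Urine carries RNA from cells shed by the kidney and the urinary tract and from vesicles and particles that protect RNA from degradation. Transcript assembly from such RNA can yield spliced long noncoding RNAs, unannotated ends and introns of genes, and short fragments of structural RNA alike.

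Positions are those listed in the table, on build rn5. Annotated, nearest and flanking genes are those that the table lists, and genes absent from it were not placed. MicroRNA genes were the landmarks nearest to 14 of the loci within 100 kb. Mature sequences are shown for the microRNA genes beside the longest run of shared loci and beside XLOC_016971. They come from RefSeq (GRCr8), with the seed (bases 2 to 8) in capitals. The sequences identify landmarks only: the nearest locus of the run lay 6931 bp from Mir29b1, and XLOC_016971 lay 6870 bp from Mir23a.
rno-miR-29a-3p: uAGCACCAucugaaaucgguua
rno-miR-29b-3p: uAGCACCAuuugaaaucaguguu
rno-miR-23a-3p: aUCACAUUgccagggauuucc
rno-miR-27a-3p: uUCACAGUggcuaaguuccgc
rno-miR-24-3p: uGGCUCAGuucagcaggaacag
The pair from Mir29a and Mir29b1 shares the seed AGCACCA, and the members of the Mir23a, Mir27a and Mir24-2 group each have a different seed. The microRNA genes themselves were not measurable in this table. All 302 listed microRNA genes had an FPKM of 0 in both libraries. The values below are those of assembled loci nearby, and whether these are part of the microRNA transcripts was not tested.

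A lower limit would have added few loci. 5344 assembled loci passed it in UUO urine alone and 227 in WT urine alone, and 13 passed it in neither. Of those passing in UUO alone, 99.9% were listed at 0 in WT, and of those passing in WT alone, 96.5% were listed at 0 in UUO. Only 14 further loci were above 0 in both libraries, while a limit of 5 would have left 477. The shared loci made up 71.0% of the 782 assembled loci detected in WT urine and 9.41% of the 5899 detected in UUO urine. Just inside the limit lay XLOC_032803 with FPKM values of 10.6 (UUO) and 1.09 (WT), XLOC_019722 with 8.14 and 1.11, and XLOC_016768 with 11.2 and 1.15. Just outside it lay XLOC_007694 with 0.961 in UUO and 3.48 in WT, XLOC_032203 with 0.959 and 18.3, and XLOC_035826 with 8.59 and 0.763. For XLOC_032803 the WT value corresponded to 1 fragment, so that its membership rested on that fragment.

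The median FPKM of the shared loci was 14.5 in UUO urine (quartiles 8.43 and 35.4) and 31.6 in WT urine (quartiles 13.3 and 108.0). In UUO urine the loci ranged from 1.24 to 1688, and in WT urine from 1.09 to 8387. An FPKM of at least 10 in both libraries was reached by 322 loci, and of at least 100 by 27. A few loci held much of the signal. The 10 highest made up 23.4% of the summed FPKM of the shared loci in UUO and 33.0% in WT. Of the 50 highest in each library, 18 were the same loci, 36% of either list.

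The median difference of log2(FPKM + 1), UUO minus WT, was -0.84 over the 555 loci, with quartiles of -2.02 and 0.15. This was close to the difference of the table as a whole, in which the median was -0.72 over 11282 features and -0.81 over 7218 annotated genes detected in both libraries. 59 loci (10.6%) were at least 2-fold higher in UUO and 255 (45.9%) at least 2-fold lower, while 241 lay within 2-fold. The background was 6.83% higher and 40.1% lower among all features detected in both, and 7.01% higher and 42.8% lower among annotated genes. The shares of the loci lay near these backgrounds. The same FPKM values chose the loci, and the split depended on scaling. Rescaled to equal sums, 104 of the 555 loci were higher and 175 lower, and by the median ratio 129 were higher and 158 lower. Differences between groups of loci within the list depend less on it, since a common factor moves them about alike.

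The libraries also differed in the levels of some sets of marker genes. Of 9 listed urothelium genes, 8 were detected in both libraries, with a summed FPKM of 2088 in WT and 2541 in UUO. For 12 tubule genes the sums were 317 and 273, with 10 detected in both. Haemoglobin and other red-cell genes (6 listed) summed to 1591 in WT and 66353 in UUO. Leukocyte genes summed to 9.61 and 436, with 8 of 10 listed at 0 in WT. Fibroblast and matrix genes (8 listed) summed to 47.2 and 73.8, with 5 detected in both. Of 7 small and structural RNA genes looked up, 1 was listed, with 0.589 in WT and 3731 in UUO. The part of these cell types, and of the gap in structural RNA, in the levels of the loci was not tested. Fewer cells of a type and less RNA per cell cannot be told apart in bulk RNA.

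The loci fell into classes by length. 427 of the 555 loci (76.9%) stood alone, with no other feature at their listed locus, and their median span was 549 bp (quartiles 300 and 957 bp). Loci found in UUO alone had a median of 576 bp and those found in WT alone 229 bp, again among loci that stood alone. Spans under 400 bp made up 37.2% of the shared loci, 21.4% of the UUO-only loci and 93.8% of the WT-only loci. The shared loci lay between the other groups in this share. The longest that stood alone were XLOC_025093 on chromosome 4, with 111875 bp, XLOC_029256 on chromosome 6, with 89497 bp, and XLOC_031000 on chromosome 7, with 75690 bp. XLOC_025093 had FPKM values of 130 (UUO) and 48.2 (WT), XLOC_029256 had 26.3 and 13.3, and XLOC_031000 had 51.6 and 248. The shortest, XLOC_000072 with 200 bp and XLOC_017280 and XLOC_033900 with 201 bp, were all higher in WT, by log2 differences of -4.21, -2.09 and -2.81.

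**Figure D1:**
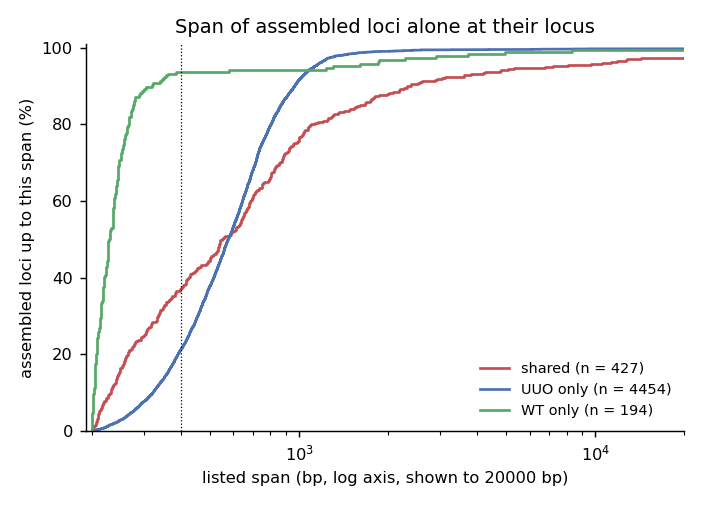
Cumulative share (%) of assembled loci against their listed span in bp on a log axis, for loci alone at their locus that were shared by both libraries, detected in UUO only or in WT only. The dotted line marks 400 bp, below which 37.2% of the shared, 21.4% of the UUO-only and 93.8% of the WT-only loci lie.

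Both the difference and the agreement between libraries changed with span. Among loci that stood alone, the 70 with spans from 200 bp to under 250 bp had a median log2 difference of -2.43, and 57 of them (81.4%) were at least 2-fold lower in UUO. The 89 from there to under 400 bp had a median of -1.60. From 400 bp upwards the medians were -0.52 (102 loci under 700 bp), -0.56 (83 loci up to 1200 bp) and -0.52 (83 longer loci). Under 400 bp the median FPKM was 26.1 in UUO and 116 in WT, and from 400 bp it was 12.7 and 20.8. The short loci were thus the higher ones in both libraries, and by more in WT. On log2(FPKM + 1), the levels in WT and UUO had a Pearson's r of 0.50 over all 555 loci and a Spearman's rho of 0.45. Over the 159 loci under 400 bp r was 0.11, and over the 268 of at least 400 bp it was 0.53. These correlations describe 1 pair of libraries across loci, which share library, depth and length correction and are not replicates. The gap between the classes was seen under each scaling tried, with medians of -2.05 and -0.55 as deposited, -1.43 and 0.033 at equal sums, and -1.22 and 0.23 by the median ratio. FPKM of a locus about as short as a fragment depends strongly on the length correction of the software, and the part of that correction in the gap was not tested.

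**Figure D2:**
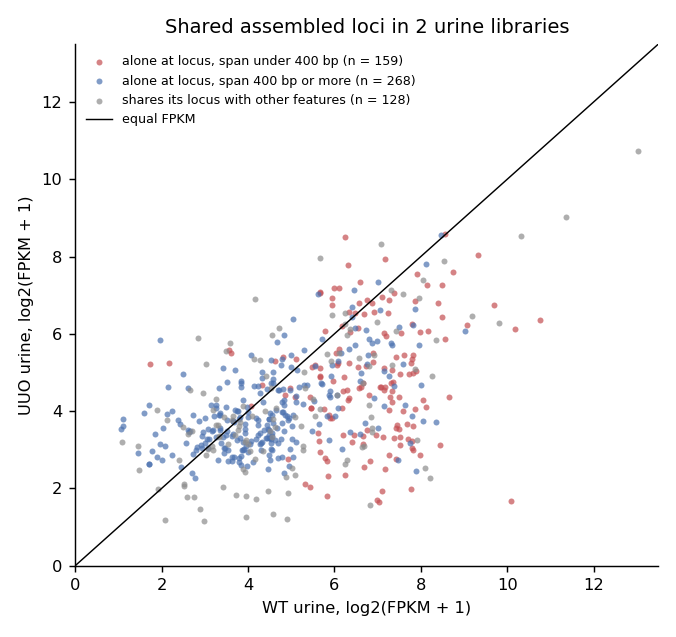
Each point is 1 of the 555 shared loci, with log2(FPKM + 1) in WT urine on the x axis and in UUO urine on the y axis, coloured by whether it stands alone at its locus and by span, and the line marks equal FPKM. Loci under 400 bp lie mostly below the line (median log2 difference -2.05), and longer ones scatter nearer to it (-0.55).

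The number of fragments behind the values could be estimated from steps in the FPKM. Where a locus stood alone and spanned 400 to 1200 bp, values fell on whole numbers of fragments. Of 185 such shared loci, 172 gave a number within 0.1 of a whole one in both libraries. Their median was 20 fragments in WT (range 1 to 525) and 15 in UUO (range 7 to 457), and 33 had under 10 fragments in WT and 24 in UUO. By exact binomial intervals, which cover counting error only, the fold between libraries differed from 1 for 78 of the 172 loci, above 1 for 20 and below 1 for 58. For the other 94 loci (54.7%) the difference lay within counting error. The intervals were not adjusted for the number of loci, and the same FPKM values chose the loci. The share of other features with such intervals was not computed, so the split is not shown to be particular to the shared loci. All features detected in both libraries had a median log2 difference of -0.72. The split turned with the scaling, to 42 above and 22 below 1 at equal sums and 52 and 15 by the median ratio. The best covered was XLOC_002985, a locus of 1018 bp on chromosome 1 (83356412 to 83357430), 8286 bp from Gsk3a, which encodes a glycogen synthase kinase. It had 457 fragments in UUO and 525 in WT (FPKM of 222 and 279), a fold of 0.796 with a 95% interval of 0.700 to 0.904 as deposited. At equal sums the fold was 1.23 (1.08 to 1.39), and by the median ratio 1.43 (1.26 to 1.62).

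Of the 15 loci with the highest mean level, 9 stood alone, 7 of them with spans of 207 to 274 bp, and 6 shared their locus with other features. The highest was XLOC_026055 on chromosome 4 (180005841 to 180024920), at FPKM values of 1688 (UUO) and 8387 (WT). Its listed locus also holds Atp6v1b1, a subunit of the proton pump of acid-secreting intercalated cells in the collecting duct. The table assigns XLOC_026055 to this gene, which also has an entry of its own. Atp6v1b1 itself had 30.7 (UUO) and 90.1 (WT), so that the assembled feature held 98.2% of the summed FPKM of the locus in UUO and 98.9% in WT. Both the locus and the gene were lower in UUO, by log2 differences of -2.31 and -1.52.

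The next was XLOC_032950 on chromosome 8 (23035080 to 23055269), with 518 in UUO and 2632 in WT, at the locus of Ralgdsl3 (5.05 and 16.7). XLOC_018182 on chromosome 2 (97310564 to 97358168) had 369 in UUO and 1278 in WT. It shared its locus with Basp1, a membrane-bound signalling protein that also acts as a partner of the Wilms tumour protein, which had 167 and 208. XLOC_019499 on chromosome 2 (82185699 to 82327824) had 236 and 369. Its locus spans Golph3, a Golgi phosphoprotein (64.0 in UUO and 33.4 in WT), and Pdzd2 (8.57 and 5.03). The table assigns XLOC_019499 to Golph3. The assembled feature was lower in UUO while the entries of both genes were higher, so that these entries did not move as 1 unit. XLOC_008133 on chromosome 11 (33831991 to 33900884) had 86.5 and 583. The nearest gene, 81834 bp away, was Sod1, the cytosolic superoxide dismutase, with 344 in UUO and 336 in WT.

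Among the high loci that stood alone, XLOC_018764 on chromosome 2 (217272937 to 217273366, 429 bp) was level in the libraries, with 376 in UUO and 352 in WT. It lay 28581 bp from Ensa, a phosphatase inhibitor of mitosis (37.1 and 31.4), and 20083 bp from Adamtsl4 (1.23 and listed at 0). RefSeq (GRCr8) places Mcl1, an anti-apoptotic BCL2 family gene, between Ensa and Adamtsl4, whereas the table lists Mcl1 on chromosome 3, with 0.293 in UUO and 0 in WT. The other level locus of this group was XLOC_017826 on chromosome 19 (70175206 to 70175480, 274 bp), with 384 in UUO and 373 in WT. The table lists no gene within 100 kb of it. Between its flanking genes Kcnk1 and Tomm20, RefSeq lists genes that the table lacks, among them Tarbp1 and Irf2bp2. RefSeq also has such genes beside other high loci, as Dedd2 for XLOC_002985 and Usp38 for XLOC_017026. The places of the loci relative to these genes were not determined.

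XLOC_033679 on chromosome 8 (116431189 to 116431435, 246 bp) had 81.7 in UUO and 1727 in WT. It lay 223 bp from Tcta (23.7 and 42.8) and 23829 bp from Rhoa, a small GTPase of the actin cytoskeleton (128 and 85.8). XLOC_025813 on chromosome 4 (66247997 to 66248204, 207 bp) had 68.7 and 1168, and lay 5903 bp from Hipk2, a kinase that has been tied to kidney fibrosis (15.9 and 26.6), and 15499 bp from Clec2l (0 in both). XLOC_037016 on chromosome X (2409678 to 2409921, 243 bp) had 107 and 824, with Usp11, a deubiquitinase, 71326 bp away (5.93 and 4.48). The log2 differences of these loci were -4.39, -4.07 and -2.93, below those of the nearest genes Tcta (-0.83), Hipk2 (-0.70) and Usp11 (0.34).

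XLOC_024358 on chromosome 4 (2392794 to 2393009, 215 bp) had 264 in UUO and 640 in WT, between Lmbr1 (1.53 and listed at 0) and Mnx1, a homeobox gene listed at 0 in both. XLOC_033409 on chromosome 8 (75993144 to 75993362, 218 bp) had 194 and 430, 18580 bp from Adam10, a sheddase of membrane proteins (10.8 and 6.69). XLOC_017026 on chromosome 19 (41699034 to 41699252, 218 bp) had 154 and 359, and lay 383 bp from Gab1, a docking protein of receptor tyrosine kinases (8.54 and 17.4). Pou2f2, 93219 bp from XLOC_002985 on the side away from Gsk3a, had 0.469 in UUO and was listed at 0 in WT, and Gsk3a had 31.0 and 56.2.

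Some loci lay between flanking genes for which RefSeq lists ribosomal RNA genes in the interval, among others. XLOC_017279 on chromosome 19 (67047799 to 67048547), 2768 bp from Gas8, a protein of the ciliary axoneme (0.592 and 5.34), had 76.3 in UUO and 894 in WT. XLOC_017784, also a shared locus, is listed at the same position, with 61.5 and 77.0. Between Gas8 and Rab4a, the next gene of the table, RefSeq lists 15 rRNA genes, 5 lncRNA genes and Rhou. XLOC_008598 on chromosome 12 (1487945 to 1490952) shares its locus with Rn5s, a 5S ribosomal RNA gene that is listed at 0 in both, and had 58.4 in UUO and 6.23 in WT. RefSeq lists 13 rRNA genes, 26 pseudogenes and 1 lncRNA gene between its flanking genes Rfc3 and Insr. The places of the loci relative to these RefSeq genes were not determined. The log2 differences were -3.53 for XLOC_017279, -0.32 for XLOC_017784 and 3.04 for XLOC_008598. The paper describes depletion of ribosomal RNA in a section that opens with kidney tissue, and its section on urine RNA does not mention it. The part of any such depletion in these values was not tested.

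The 5 loci with the lowest log2 difference ranged from -8.41 to -5.43. XLOC_007263 on chromosome 10 (91434589 to 91434951, 362 bp) had 2.19 in UUO and 1080 in WT, a difference of -8.41, and lay 26136 bp from Lyzl6, which was listed at 0 in both. XLOC_034899 at the locus of Tmem42 on chromosome 8 had 3.86 and 296 (gene 7.33 and 27.7). XLOC_025473 on chromosome 4 had 2.99 and 217, and its neighbour Bicd1, an adaptor of dynein transport 4425 bp away, had 0.885 and 283. XLOC_034244 on chromosome 8 had 4.73 and 271, and lay 1141 bp from Zbtb16, a zinc-finger repressor induced by glucocorticoids (3.11 and 78.5). In these 3 the assembled locus and the gene were both lower in UUO. XLOC_023752 on chromosome 3 had 4.50 and 236, against 11.9 and 8.18 for Snap23, a membrane fusion protein 3364 bp away, so that here the gene did not share the direction.

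At the other end, XLOC_002420 on chromosome 1 (9261835 to 9262286, 451 bp) had 56.4 in UUO and 2.93 in WT, a difference of 3.87. It stood on 38 fragments in UUO and 2 in WT, a fold of 19.3 with a counting interval of 4.99 to 165. The locus was named for its difference, and the interval makes no allowance for that choice. The nearest gene, Fuca2, a fucosidase 24734 bp away, had 6.36 and 15.6. XLOC_021335 on chromosome 20 had 36.6 and 2.33, 37007 bp from Neurog3, a transcription factor of endocrine progenitors (0.259 and listed at 0). XLOC_020898 on chromosome 20 had 36.8 and 3.53, 98355 bp from Smpdl3a (4.86 and 6.16). XLOC_003054 on chromosome 1 had 118 and 17.0, at the locus of Yif1b (0.830 and listed at 0). None of the genes nearest to these loci was detected in both libraries and higher in UUO.

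The loci lay nearer to annotated genes than assembled loci of 1 library did. The median distance to the nearest annotated gene was 22169 bp for shared loci, 99792 bp for UUO-only loci and 38455 bp for WT-only loci. Within 1 kb of a gene, or sharing its locus, were 87 shared loci (15.7%), against 3.61% of the UUO-only and 11.01% of the WT-only loci. Within 10 kb the shares were 36.4%, 14.1% and 32.6%, and within 100 kb 81.8%, 50.02% and 67.8%. The nearest gene was itself detected in both libraries for 60.7% of the shared loci, 41.1% of the UUO-only and 51.1% of the WT-only loci, against 43.8% of all annotated genes. When the gene lay within 10 kb without sharing the locus, these shares were 76.7% (135 of 176), 46.5% and 60.9%. Position was not used to choose the loci, and with 1 library per group the differences are given without a test.

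**Figure D3:**
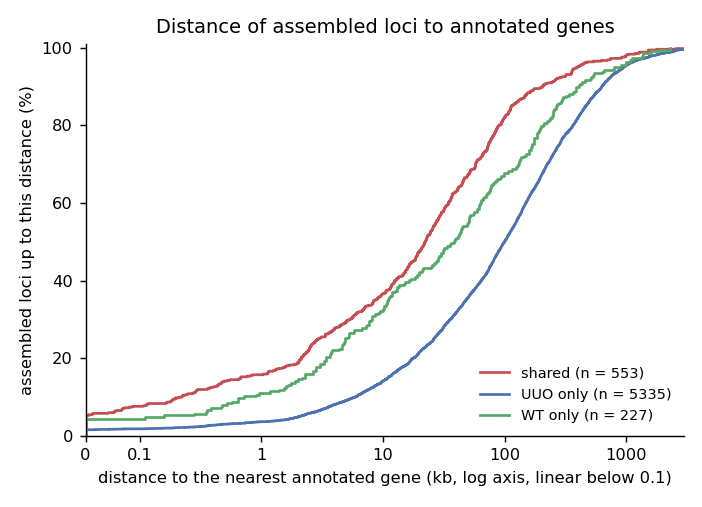
Cumulative share (%) of assembled loci against the distance to the nearest annotated gene in kb (log axis, linear below 0.1 kb), with 0 for loci that share a gene's listed locus. The curve of the shared loci lies above those of UUO-only and WT-only loci, with 36.4%, 14.1% and 32.6% within 10 kb; 2 shared and 9 UUO-only loci on sequences without an annotated gene are not drawn.

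The loci were spread over the genome. Chromosome 8 held 48 (8.65%, against 4.88% of the UUO-only loci, 4.41% of the WT-only loci and 5.82% of the genes detected in both), and chromosome 4 held 41 (7.39%, against 5.202%, 5.73% and 5.28%). On chromosomes 12, 14, 18 and 19 the share of the shared loci was also above that of each other kind. Chromosome 1 held 53 (9.55%, against 12.4%, 8.81% and 12.8%).

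The differences of locus and gene were compared for loci close to a gene. For the 135 loci whose nearest gene lay within 10 kb, outside the locus, and was detected in both libraries, the log2 differences of locus and gene had a Pearson's r of 0.43 and a Spearman's rho of 0.34. In 38 of these pairs both were at least 2-fold lower in UUO and in 2 both were higher, while 6 pairs moved 2-fold in opposite directions. Taken singly, 73 of the 135 loci and 54 of the genes in the pairs were 2-fold lower, so many pairs would be lower in both with no link between them. At 10 to 100 kb r was -0.024 over 141 pairs. Within 1 kb it was 0.25 over 49 pairs, and from 1 to 10 kb 0.49 over 86. These are descriptions across loci, several of which share a gene: the 135 loci had 117 different genes. Of the 117 genes, 49 (41.9%) were lower and 8 (6.84%) higher by 2-fold, near the 42.8% and 7.01% of annotated genes in general.

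**Figure D4:**
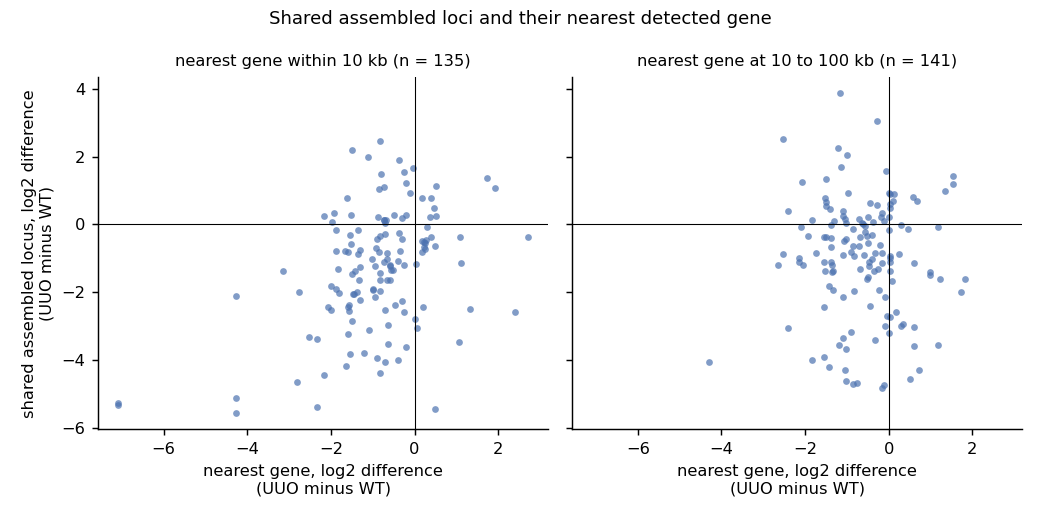
Log2 difference (UUO minus WT) of each shared locus on the y axis against that of its nearest annotated gene on the x axis, for genes detected in both libraries at up to 10 kb (n = 135) and at 10 to 100 kb (n = 141). Some near pairs lie far to the lower left, where Sytl5 and Zbtb16 lie, and the far pairs show no slope (r = -0.024).

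The genes in this paragraph were chosen after their values were seen. Sytl5, a Rab27 effector of vesicle transport, had 4.28 in UUO and 714 in WT, the lowest log2 difference (-7.08) among neighbours within 10 kb with an FPKM of at least 1 in both libraries. XLOC_036482 and XLOC_036486, at 2333 and 5625 bp from it on chromosome X, had 7.72 and 2.27 in UUO and 346 and 125 in WT. Zbtb16 had a further locus, XLOC_034243, with 6.26 and 251. Irx3 and Irx5 are neighbouring homeobox genes of nephron patterning. Irx3 had 7.76 and 43.0, with XLOC_017408 at 182 bp (2.16 and 130), and Irx5 had 2.51 and 16.6, with XLOC_017414 at 2036 bp (10.1 and 115). In the other direction, Shh, the hedgehog ligand made by urothelium and collecting duct, had 35.9 and 10.04. XLOC_024337, 2209 bp away, had 32.3 and 12.03, on 18 fragments in UUO and 7 in WT, a fold of 2.69 with a counting interval of 1.07 to 7.63. Sh3pxd2a, a podosome scaffold, had 14.3 and 3.06, and XLOC_004722 at 768 bp had 11.01 and 4.66. XLOC_004722 held 5.13% of the summed FPKM of its locus in WT, and the sum went the other way, with 23.1 in UUO and 90.9 in WT.

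Of the marker genes of urothelium, tubule, red cells, leukocytes and matrix that were looked up, only Pax2 was the nearest gene of a shared locus. Pax2 is a transcription factor of the nephric lineage. XLOC_002239 lay 67 bp from it on chromosome 1 (271946643 to 271947198) and had 8.63 in UUO and 57.6 in WT, on 8 and 52 fragments. The fold was 0.150 with a counting interval of 0.0615 to 0.318. Pax2 itself had 0.860 in UUO and was listed at 0 in WT, so the locus was measured well above the gene.

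Loci that share a listed position with other features need care, because the software divides fragments among overlapping features. This concerned 128 of the 555 loci, 26 of them (4.68%) with an annotated gene, against 1.55% of the UUO-only and 4.41% of the WT-only loci. In 25 of the 26 the assembled feature was above every gene of its locus in WT, and in 21 in UUO. Over the 128, the assembled feature held a median of 90.0% of the summed FPKM of its locus in UUO and 100% in WT. Of 19 such loci at least 2-fold higher in UUO, 14 were also higher as a sum over the locus, and of 57 lower ones 51 were. 2 loci had opposite calls, XLOC_004722 and XLOC_022876, with log2 differences of 1.08 and 1.07 as features and -1.93 and -2.49 as sums. For all 6 of the 15 highest loci that share a locus, feature and sum were lower in UUO.

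Some shared loci lay in runs, and the runs and genes described next were chosen after values were seen. The share of other assembled loci in such runs was not computed, so runs are not shown to be particular to the shared loci. 8 of the shared loci had the listed position of another shared locus and were counted singly. With a gap of at most 50 kb, 173 loci (31.2%) fell in 71 runs of at least 2, and 6 runs had 4 or more. The longest was the run of 8 loci beside Mir29a and Mir29b1 on chromosome 4 (58107064 to 58190203). These genes carry the microRNAs printed above, which are known to repress collagen and other matrix genes and to be lowered by TGF-beta in fibrosis. The nearest of the 8, XLOC_025754, lay 6931 bp from Mir29b1 and had 24.8 in UUO and 38.5 in WT. Over the run, FPKM was 8.04 to 24.8 in UUO and 6.75 to 38.5 in WT. 6 of the 8 were lower in UUO and 2 higher, with a median log2 difference of -0.60, near that of all features (-0.72). The direction followed the scaling, with 3 of 8 higher at equal sums and 5 by the median ratio. Of the 7 loci of the run that could be counted, 2 had a fold whose counting interval left out 1 as deposited, XLOC_025767 with 12 fragments in UUO and 26 in WT (0.430, 0.198 to 0.884) and XLOC_025762, also with 12 and 26 (0.436, 0.200 to 0.895). The intervals of the other 5 included it, as for XLOC_025768 with 15 and 22 fragments (0.642, 0.310 to 1.30). The greatest rise, of XLOC_025758 (21.1 and 6.75, log2 difference 1.51), came down to 0.29 in the sum over its locus. 5 UUO-only loci lay between the 8, and 0 WT-only ones. RefSeq lists 2 lncRNA genes between Mir29b1 and the next gene, Mkln1.

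The run of 7 on chromosome 10 (101328208 to 101385346) lay 44743 bp from the listed locus of Cog1, a Golgi complex subunit. That locus is listed from 101430089 to 101890141, so the distance is to the edge of a long listed locus. Its loci had 5.96 to 14.4 in UUO and 5.12 to 29.8 in WT, 3 higher and 4 lower in UUO. 6 UUO-only loci lay between them. Between the flanking genes Kcnj2 and Cog1, RefSeq lists 17 lncRNA genes and the protein-coding genes Sox9 and Sstr2, among others. The place of the run relative to these genes was not determined. Only for XLOC_007387, with 23 and 48 fragments, did the counting interval of the fold (0.442, interval 0.257 to 0.741) leave out 1, as deposited, among the loci that could be counted.

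The run of 6 beside Frmd8 on chromosome 1 (228084667 to 228137088) was higher in UUO for most loci. In mammals this region holds the nuclear noncoding RNAs Malat1 and Neat1, and RefSeq lists 2 lncRNA genes next to Frmd8, LOC120097382 and LOC120097381. The table has no entry under those names. FPKM was 28.1 to 322 in UUO and 7.19 to 135 in WT, and 5 of the 6 loci were higher in UUO, with a median log2 difference of 0.96. All 6 were higher at equal sums and by the median ratio, and all 6 lower at a common 75th percentile over features above 0 in either library. Frmd8 itself, 9189 bp from the run, was lower in UUO, with 15.02 and 44.5, a log2 difference of -1.50. XLOC_004312, alone at its locus (228115744 to 228116620), had 82.4 and 32.2 on 141 and 51 fragments, a fold of 2.55 with a counting interval of 1.84 to 3.59. XLOC_004319 had 28.1 and 19.0 on 43 and 27 fragments (1.48, 0.896 to 2.50). XLOC_004316 had 38.5 and 23.8, and XLOC_004318 was the one lower locus, with 35.3 and 46.2. The outer pair shares its loci with noncoding entries of the table. XLOC_004311 had 322 and 135, but the sum over its locus was 580 and 611, a log2 difference of -0.076 in place of 1.24. For XLOC_004320 the value was 2.19, and 0.80 in the sum (171 and 98.0). The 4 loci that stood alone and both sums lay above the median of all features, -0.72.

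**Figure D5:**
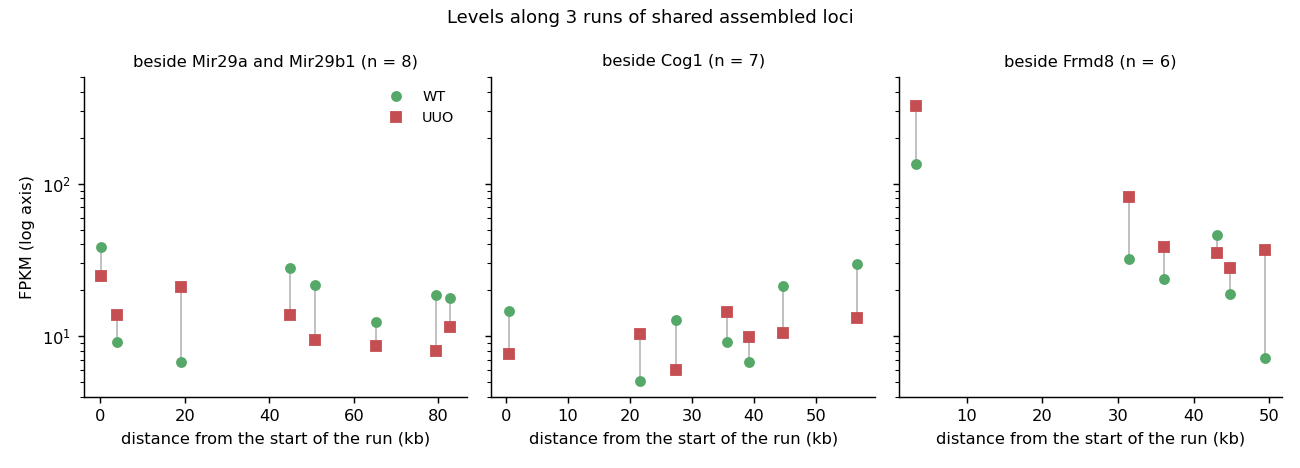
FPKM (log axis) of each shared locus in WT (circles) and UUO (squares) against its distance in kb from the start of its run, for the runs beside Mir29a and Mir29b1 (8 loci), beside Cog1 (7) and beside Frmd8 (6), with a grey line joining the libraries of a locus. In the first run 6 of 8 loci and in the second 4 of 7 are lower in UUO, and in the third 5 of 6 are higher.

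As deposited, the other runs were lower in UUO for most loci. The 5 loci between Trafd1 and Ptpn11 on chromosome 12 (42603615 to 42728137) had a median log2 difference of -3.21, with XLOC_009542 at 12.2 in UUO and 325 in WT. Of the flanking genes, Trafd1 was also lower in UUO, with 8.67 and 18.6 (log2 difference -1.02). Ptpn11, the phosphatase SHP2, was level (log2 difference -0.0039). RefSeq lists the ribosomal protein gene Rpl6 there. The 4 beside Slc16a4 on chromosome 2 (229550896 to 229595727) had a median of -2.40, and RefSeq lists Rbm15, an RNA-binding protein, there. The 4 beside Hipk2 had a median of -1.40, from XLOC_025813 at -4.07 to XLOC_025812 at 0.039 (73.1 and 71.1), although they lay within 6577 bp of each other.

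Besides the Mir29 loci, XLOC_016971 on chromosome 19 lay 6870 bp from Mir23a, which forms 1 cluster with Mir27a and Mir24-2, and had 43.2 in UUO and 30.9 in WT. XLOC_006851 lay 5040 bp from Mir193 on chromosome 10 and was level, at 12.8 and 12.9. XLOC_031467 lay 1377 bp from Mirlet7c2 on chromosome 7, with 6.31 and 3.70. Others lay lower in UUO. XLOC_022223, 3978 bp from Mir674 on chromosome 3, had 5.998 and 26.6. XLOC_008296 and XLOC_008298, at 682 and 5770 bp from the listed locus of Mir568, had log2 differences of -2.37 and -1.42, and XLOC_034468, 42 bp from that of Mir628, had -3.04. The listed loci of Mir568, Mir628, Mir28 and Mir652 spanned 2741, 60101, 493656 and 159431 bp. Distances to these 4 are to the edges of long listed loci and not to the microRNAs, and Ccpg1 also lay 42 bp from XLOC_034468. Over the 10 loci within 10 kb of the listed locus of a microRNA gene, such long ones included, 6 lay above and 4 below the median of all features (-0.72).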

How the data were processed

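RNA-seq of 1 WT and 1 UUO urine library was analysed from 1 deposited Cuffdiff table. The authors computed its FPKM values. Per the submitters' processing notes the tools were Bowtie2 2.0.6, TopHat2 2.0.9, Cufflinks 2.1.1 and Cuffdiff 2.1.1, on build rn5. The table also holds the authors' log2 ratios, test statistics, p-values and q-values, which were not used.

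Differences were log2((UUO + 1)/(WT + 1)), which understates low loci, counted at 2-fold. The loci and lists were chosen with earlier results of these data known. Named were the 15 highest loci, the 5 extremes each way, 3 on each side of the limit, 3 longest and 3 shortest, and the genes around them. Runs and microRNA neighbours were chosen after values were seen. Gene symbols came from RefSeq (GRCr8, 99.1% of IDs matched), without coordinates.

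Fragment totals behind the FPKM were fitted from its steps (alone at locus, 400 to 1200 bp). They were 2115000 (WT) and 2446000 (UUO) fragments, with length offsets of 128 and 176 bp and 93.5% and 99.5% of values within 0.1 of whole. The paper reports more reads per sample than these fitted totals, and the gap was not examined. The step fit was tested on simulated data. Python 3.11, pandas and SciPy were used. Genome sequence of rn5 was not used here.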

Additional observations from a re-analysis of the deposited data

How the results depend on the processing

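113 alternatives were run for the 13 summary values, 9 of them added after seeing the data, and 83 stayed near the value reported. Scaling moved the direction most. The median log2 difference of the shared loci (-0.84) was -0.28 at equal sums, -0.082 by the median ratio, -3.80 at a common 75th percentile over features above 0 in either library, and 1.57 (added) at the 75th percentile of each library's own features above 0. In the same order, 100, 125, 1 and 357 loci were 2-fold higher, and the lower ones numbered 159 by the median ratio, then 514 and 53. The median of the genes nearest to the loci was -0.20 as deposited, 0.11 by the median ratio, -2.96 and 1.57 at these percentiles, and -0.70 for the nearest gene detected in both. Median FPKM at the common 75th percentile was 98.7 in WT and 4.93 in UUO.

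Spans of at least 500 bp left 361 loci, 135 of them lower, with a median of 19.5 in WT. Loci alone with at least 400 bp (added) gave 30 higher and 88 lower. A limit of 5 left 34 higher loci, a pseudocount of 10 left 31, and a 4-fold limit 20 higher and 142 lower. A gene lay within 10 kb of 36.4% of the loci and at the locus of 4.68%, and within 100 kb of 92.3% with NONRATG entries counted as genes. Without the length offset the median was 42 fragments in WT in place of 20. No paired analysis was possible because there was only 1 library on each side, so that none could be left out either. Depth limits what loci of a few fragments can show, and spans outside 400 to 1200 bp gave no counts.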
